A study of Sus scrofa with 18 samples.

Results

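The genes described here encode complement components, coagulation factors and other proteins that the liver secretes into blood plasma. They were chosen by name and function, as a list of 53 genes. Earlier results of these data were known when the list was made. Of these, 39 were measured in the liver on a probe set assigned to a single gene symbol, out of 12365 different gene symbols on 25388 probe sets. A further 12 genes (TTR, GC, F7, F11, F12, F13B, PROC, PROS1, PROZ, VTN, MASP2 and C3) were not listed in the probe annotation used here. C2 and CFB shared 1 probe set, which was assigned to neither.

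The samples were livers of 18 male crossbred pigs, 6 per diet with 1 array per pig, from a feeding trial that began at 5 weeks of age and lasted 4 weeks. Group CON ate soybean extraction meal and 0% insect meal, group IM5 ate 5% insect meal from Tenebrio molitor larvae in place of 50% of the soybean meal, and group IM10 ate 10% insect meal in place of 100% of it. Cellulose and single amino acids were added in amounts that differed between the diets, so the effect of insect meal and that of these additions cannot be told apart. Pigs shared pens, and since the pen of each pig is not given in the sources used here, pigs were treated as independent.

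Hepatocytes make most of the protein in plasma. Complement is a cascade of proteases in which the C1 complex or the lectin pathway protease MASP1 starts cleavage of the central components, and C5 to C9 form the membrane attack complex at its end. Coagulation is a second protease cascade, in which prothrombin is activated and thrombin turns fibrinogen into fibrin, while antithrombin and plasmin limit and dissolve the clot. Several of these genes, those of fibrinogen among them, are acute phase genes, which hepatocytes transcribe more strongly under interleukin-6.

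Values are log2 expression values made by robust multi-array averaging (RMA), and they are a brightness of the probe set. They compare 1 gene between pigs but do not compare amounts of transcript between genes. In whole liver, fewer cells of a type and less RNA per cell cannot be told apart. Array medians lay between 5.05 and 5.15, and correlations between arrays between 0.986 and 0.992. All 39 genes lay above the highest array median on all 18 arrays, with single values from 7.83 to 12.95. The highest value in the table was 13, and whether the brightest probe sets were near saturation cannot be seen in these values. Of 10 hepatocyte markers, 7 were measured, and all 7 had means above the highest array median (8.67 to 12.53). The smooth muscle markers were the cell type list with the most differences, with 4 of 6 measured genes higher in IM10 against CON by the criteria below.

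The first question was whether plasma protein transcripts differed when insect meal replaced part or all of the soybean meal. The criteria, taken from the methods of the study, were a difference of more than 1.2-fold up or down together with an unadjusted p under 0.05, here from limma. None of the 39 genes met them in IM10 against CON, where 2.07% of all probe sets did (1.27% higher and 0.8% lower). The count was also 0 in IM5 against CON (background 1.92%, 1.12% higher and 0.804% lower) and in IM10 against IM5 (background 1.59%, 0.827% higher and 0.764% lower). At an unadjusted p under 0.05 alone, limma called 0 of 39 genes in each comparison, beside 6.07%, 5.72% and 5.4% of all probe sets, and no probe set on the array passed an adjusted p of 0.05. In no comparison did the 6 values of 1 group lie wholly above those of the other for any of the 39 genes, beside 0.256%, 0.225% and 0.213% of all probe sets.

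**Figure D1:**
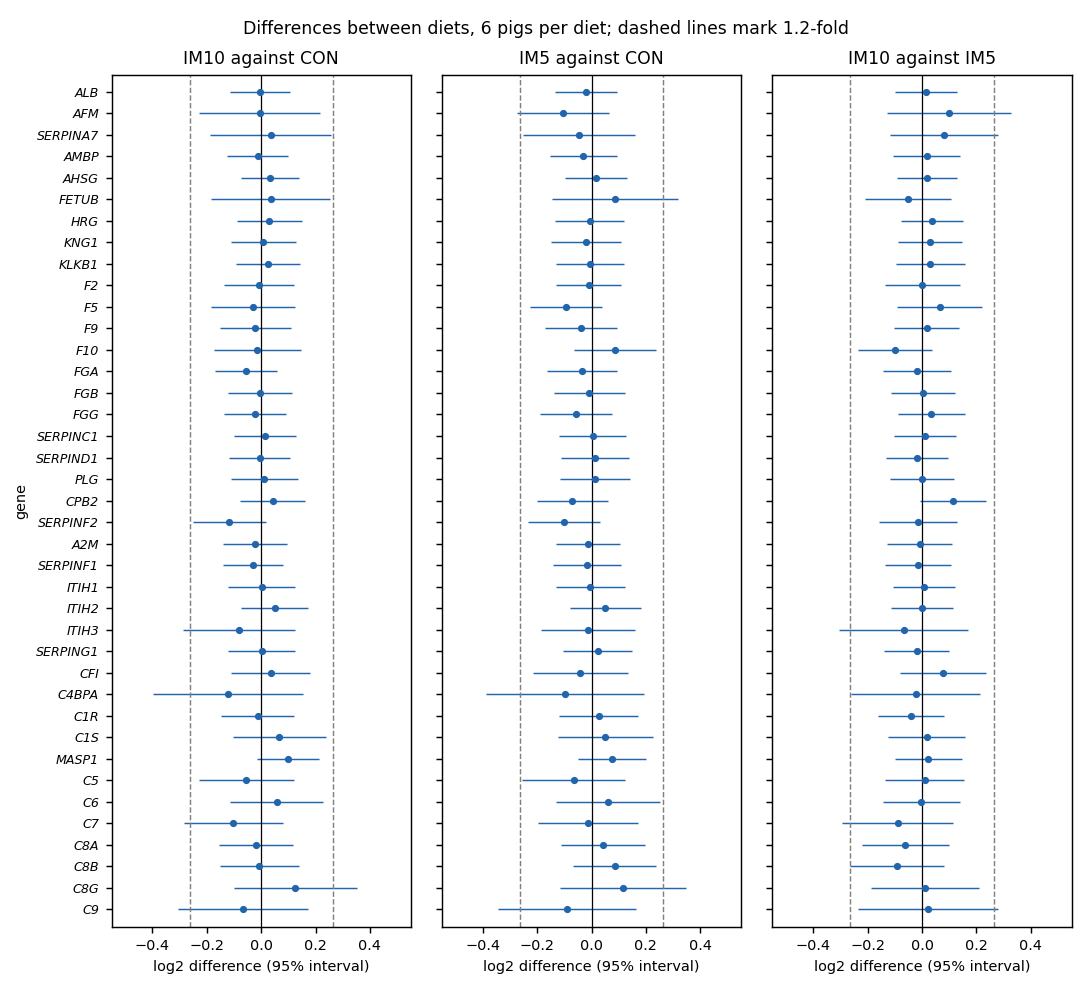
Log2 difference between diets (x axis) with its 95% interval from limma for each of the 39 genes (y axis), 6 pigs per diet, in 3 panels for the 3 comparisons. The dashed lines mark 1.2-fold; all points lie inside them, and 34, 34 and 33 of the 39 intervals lie wholly inside.

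The differences were small. The median absolute log2 difference of the 39 genes was 0.030 in IM10 against CON, 0.038 in IM5 against CON and 0.020 in IM10 against IM5, compared with 0.065, 0.067 and 0.068 over all probe sets. Signs were mixed, with 17 genes above 0 and 22 below in IM10 against CON, 15 and 24 in IM5 against CON, and 22 and 15, with 2 at exactly 0, in IM10 against IM5; of all probe sets, 50.8%, 51.3% and 49.3% lay above 0. The first and the second comparison share the 6 control pigs. The 95% interval lay within 1.2-fold either way for 34, 34 and 33 genes. The same held for 52.9%, 47.1% and 47.3% of all probe sets, and for 70.9%, 64.6% and 62.8% of the 1798 probe sets at least as bright as the dimmest of the 39. Those 1798 were not matched to the 39 genes in brightness, so these shares do not compare equally bright probe sets. For the remaining 5, 5 and 6 genes the interval reached beyond 1.2-fold, so a difference of that size was within the error.

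Among the carriers, albumin (ALB), the main transport protein of plasma, ranged from 12.84 to 12.90 in group CON (median 12.885), from 12.82 to 12.90 in group IM5 (median 12.85) and from 12.81 to 12.95 in group IM10 (median 12.875). The 3 groups overlapped almost completely, and the log2 difference between IM10 and CON was -0.0050 (95% interval -0.11 to 0.10). Afamin (AFM), a vitamin E binding protein of the albumin family, varied more between pigs, from 10.53 to 10.90 in group CON, 10.43 to 10.79 in group IM5 and 10.24 to 10.98 in group IM10. Its log2 difference was -0.10 in IM5 against CON (exact permutation p = 0.195) and 0.10 in IM10 against IM5 (exact permutation p = 0.42). IM10 replicate 3, at 10.24, was the lowest of all pigs for AFM, and without it the latter difference was 0.19 with an unadjusted p of 0.0431 (adjusted p = 0.891). Without IM10 replicate 4, the highest pig, it was 0.041. In IM5 against CON the AFM difference was -0.063 without CON replicate 1. SERPINA7, thyroxine-binding globulin, had its lowest pig at 7.83 and its highest at 8.42, and AMBP, the precursor of alpha-1-microglobulin and bikunin, lay between 11.46 and 11.62.

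The cystatin family genes comprised AHSG (fetuin-A), FETUB (fetuin-B), HRG (histidine-rich glycoprotein) and KNG1 (kininogen), whose log2 differences lay between 0.0083 and 0.035 in IM10 against CON and between -0.020 and 0.087 in IM5 against CON. AHSG spanned 12.78 to 12.90 over all 18 pigs. Plasma prekallikrein (KLKB1), the only measured gene of the contact system, differed by 0.025 and -0.0050 in the same comparisons.

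For the clotting factors, prothrombin (F2) ranged from 10.50 to 10.58 in group CON (median 10.54), from 10.46 to 10.60 in group IM5 (median 10.525) and from 10.43 to 10.67 in group IM10 (median 10.53). The IM5 and IM10 ranges both enclosed that of the controls, and the log2 difference was -0.0083 in IM10 against CON. Factor V (F5), the cofactor of factor Xa, lay between 10.36 and 10.57 in group CON and between 10.31 and 10.49 in group IM5, a log2 difference of -0.095 (exact permutation p = 0.0519). Factor X (F10), the protease that activates prothrombin, had log2 differences of 0.085 in IM5 against CON and -0.10 in IM10 against IM5 (exact permutation p = 0.0736 for the latter). Factor IX (F9) differed by -0.022 and -0.038 in IM10 and IM5 against CON.

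The 3 fibrinogen chains, FGA, FGB and FGG, were bright in every pig. FGA ranged from 11.96 to 12.12 in group CON, 11.92 to 12.07 in group IM5 and 11.93 to 12.03 in group IM10. FGB spanned 12.08 to 12.27, 12.08 to 12.24 and 12.09 to 12.16, and FGG 12.01 to 12.16, 11.90 to 12.10 and 12 to 12.09 in the same order. The groups overlapped for each chain, and the log2 differences in IM10 against CON were -0.055, -0.0050 and -0.023 for FGA, FGB and FGG. The anticoagulants antithrombin (SERPINC1) and heparin cofactor II (SERPIND1) differed by 0.013 and -0.0050 in this comparison.

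Alpha-2-antiplasmin (SERPINF2), the main inhibitor of plasmin, had the smallest limma p of the 39 genes in both comparisons with the controls. It ranged from 9.67 to 9.83 in group CON (median 9.76), from 9.54 to 9.75 in group IM5 (median 9.645) and from 9.49 to 9.75 in group IM10 (median 9.645). Both insect meal groups reached below the lowest control pig, but their upper values lay inside the control range. The log2 difference was -0.12 in IM10 against CON (95% interval -0.25 to 0.017; limma p = 0.082, adjusted p = 0.839; exact permutation p = 0.0433, two-sided) and -0.10 in IM5 against CON (limma p = 0.121, adjusted p = 0.89; exact permutation p = 0.0411). Without IM10 replicate 5 the former difference was -0.14 with a limma p of 0.0475 (adjusted p = 0.827), and without IM10 replicate 3 it was -0.088 with a limma p of 0.187.

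Thrombin-activatable fibrinolysis inhibitor (CPB2), a carboxypeptidase that slows clot dissolution, ranged from 11.47 to 11.67 in group CON (median 11.635), from 11.45 to 11.63 in group IM5 (median 11.545) and from 11.59 to 11.71 in group IM10 (median 11.655). Group IM5 lay lowest, and its highest pig overlapped the lowest pigs of group IM10. The log2 difference in IM10 against IM5 was 0.11 (95% interval -0.0087 to 0.24; limma p = 0.0664, adjusted p = 0.881; exact permutation p = 0.00866, two-sided), and it was -0.072 in IM5 against CON. Without IM5 replicate 6 the limma p of IM10 against IM5 was 0.0427 (adjusted p = 0.819). Plasminogen (PLG), the precursor of plasmin, differed by 0.012 in both comparisons with the controls.

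A2M, pigment epithelium-derived factor (SERPINF1) and the heavy chains of inter-alpha-trypsin inhibitor (ITIH1, ITIH2 and ITIH3) had log2 differences between -0.080 and 0.050 in IM10 against CON. In IM5 against CON the differences lay between -0.017 and 0.050. Alpha-2-macroglobulin (A2M), a broad protease inhibitor, ranged from 11.99 to 12.10 in group CON, 12.02 to 12.07 in group IM5 and 11.96 to 12.15 in group IM10. ITIH3 had 4 low pigs, IM5 replicate 4 at 10.52, IM10 replicate 2 at 10.40, IM10 replicate 4 at 10.53 and CON replicate 3 at 10.72, while the others lay between 10.79 and 11.04.

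**Figure D2:**
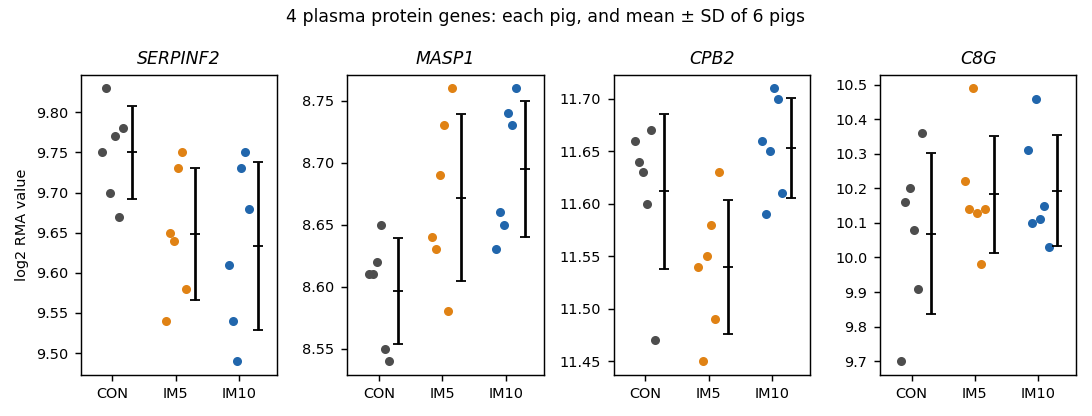
Log2 RMA value (y axis) of each pig by diet (x axis) for SERPINF2, MASP1, CPB2 and C8G; the black bars are the mean ± SD of 6 pigs, and each panel has its own axis, which does not start at 0. The diets overlap in every panel, and the exact permutation p was 0.0433 for SERPINF2 and 0.00649 for MASP1 in IM10 against CON.

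At the start of complement, MASP1 ranged from 8.54 to 8.65 in group CON (median 8.61), from 8.58 to 8.76 in group IM5 (median 8.665) and from 8.63 to 8.76 in group IM10 (median 8.695). The control pigs lay low, and the ranges of group CON and group IM10 met only between 8.63 and 8.65. The log2 difference in IM10 against CON was 0.098 (95% interval -0.016 to 0.21), which is 1.07-fold, with a limma p of 0.0856 (adjusted p = 0.842) and an exact permutation p of 0.00649 (two-sided). In IM5 against CON it was 0.075 (limma p = 0.22; exact permutation p = 0.0519). C1R and C1S, the proteases of the C1 complex, differed by -0.013 and 0.067 in IM10 against CON.

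Exact permutation p-values under 0.05 were found for 2 of 39 genes in IM10 against CON (SERPINF2 and MASP1), 1 in IM5 against CON (SERPINF2) and 1 in IM10 against IM5 (CPB2). The same test gave such a p for 5.86%, 5.38% and 5.59% of all probe sets, so the share among the 39 genes was no higher than the background. Limma draws the SD of each gene towards that of the other probe sets, and for MASP1, with an SD of 0.043 in group CON and 0.055 in group IM10, its p was larger than the exact p.

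The complement regulators were C1 inhibitor (SERPING1), factor I (CFI) and the alpha chain of C4b-binding protein (C4BPA). C4BPA ranged from 8.64 to 9.46 in group CON (median 9.02), from 8.58 to 9.08 in group IM5 (median 8.975) and from 8.63 to 9.13 in group IM10 (median 8.84). Its log2 difference in IM10 against CON was -0.12 with a wide interval (-0.40 to 0.15; exact permutation p = 0.45). Without CON replicate 6, the highest pig, it was -0.026, and without CON replicate 3 it was -0.19. In IM5 against CON the difference was -0.098, and -0.0027 without CON replicate 6. A second probe set of C4BPA was dim, with a mean of 3.92, and its difference had the other sign (0.20). The other genes with several probe sets, AHSG, F2 and PLG, differed by at most 0.043 in size on their second probe set in any comparison.

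The membrane attack genes C5, C6, C7, C8A, C8B, C8G and C9 had log2 differences between -0.10 and 0.125 in IM10 against CON. C8G, which encodes the lipocalin chain of complement C8, ranged from 9.70 to 10.36 in group CON (median 10.12), from 9.98 to 10.49 in group IM5 (median 10.14) and from 10.03 to 10.46 in group IM10 (median 10.13). The medians of the 3 groups were nearly equal and CON replicate 1 was the lowest pig. The log2 difference was 0.125 in IM10 against CON (95% interval -0.10 to 0.35; exact permutation p = 0.32) and 0.115 in IM5 against CON (exact permutation p = 0.366). Without CON replicate 1 these were 0.051 and 0.041, and without CON replicate 6 the second was 0.17. C7 differed by -0.10 in IM10 against CON (exact permutation p = 0.277), but by -0.046 without IM10 replicate 1. C8B differed by -0.092 in IM10 against IM5 (exact permutation p = 0.262), but by -0.059 without IM5 replicate 6.

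A dose trend over 0%, 5% and 10% insect meal, fitted on all 18 arrays, was called for 0 of 39 genes at an unadjusted p under 0.05, beside 5.32% of all probe sets. The smallest p-values were those of SERPINF2 (0.0677, adjusted p = 0.944), which changed by -0.012 log2 units per 1% of insect meal, and MASP1 (0.0712, adjusted p = 0.944), which changed by 0.0098.

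Genes of the same pathways outside the 39 were counted by the same criteria. Of 16 other complement genes measured, 0 met the criteria in IM10 against CON and 1 was higher in IM5 against CON, properdin (CFP, log2 difference 0.28). Of 23 other coagulation and fibrinolysis genes, TFPI, the inhibitor of the tissue factor pathway, was higher in both groups fed insect meal, by 0.30 and 0.31. Its probe set was dim, with a mean of 3.12 in group CON, and IM10 and IM5 share those controls. Among 23 other secreted liver proteins, the iron hormone hepcidin (HAMP) was higher in IM10 against CON by 1.57 (limma adjusted p = 0.549; exact permutation p = 0.00216, the smallest possible), and C-reactive protein (CRP), an acute phase protein, was lower, with a log2 difference of -0.60 (exact permutation p = 0.0649), which was -0.33 without CON replicate 6. In IM5 against CON the list had 3 higher genes, the acute phase gene SAA3 (log2 difference 1.24), HAMP (0.96) and HGFAC (0.28), and 0 lower. Their exact permutation p was 0.0801, 0.0952 and 0.0541. SAA3 had a mean of 7.597 (SD 1.70) in group CON, 8.838 (SD 0.264) in group IM5 and 7.575 (SD 1.74) in group IM10. In IM10 against IM5 the list had 1 higher and 2 lower genes, SAA3 among the lower (log2 difference -1.26, exact permutation p = 0.0996). Of 20 liver transcription factors and interleukin-6 signalling genes, FOXA2 was higher and CEBPD lower in IM10 against CON, with log2 differences of 0.39 and -0.34. The exact permutation p was 0.00433 for FOXA2 but 0.0693 for CEBPD. In IM5 against CON, FOXA2 was higher by 0.27 and 0 genes were lower. None of these genes passed an adjusted p of 0.05.

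The second question was how much the plasma protein transcripts varied between pigs of 1 diet. The within-diet SD, pooled over the 3 diets, had a median of 0.069 log2 units over the 39 genes. The median was 0.159 over all probe sets and 0.119 over the 1798 probe sets at least as bright as the dimmest of the 39. These 1798 were not matched to the 39 genes in brightness, and the part of brightness in the smaller SDs was not tested. The SD lay below 0.159 for 32 of the 39 genes and below 0.119 for 28. It was smallest for AHSG (0.027), ALB (0.036), SERPINC1 (0.045), SERPIND1 (0.047) and A2M (0.047). The largest SDs belonged to C4BPA (0.245), C9 (0.225), C8G (0.190), SERPINA7 (0.178) and AFM (0.177). C9, the pore-forming component, had its lowest pigs at 10.51 (IM5 replicate 2), 10.65 (IM10 replicate 3) and 10.69 (CON replicate 5), 1 in each diet, and its highest at 11.24.

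**Figure D3:**
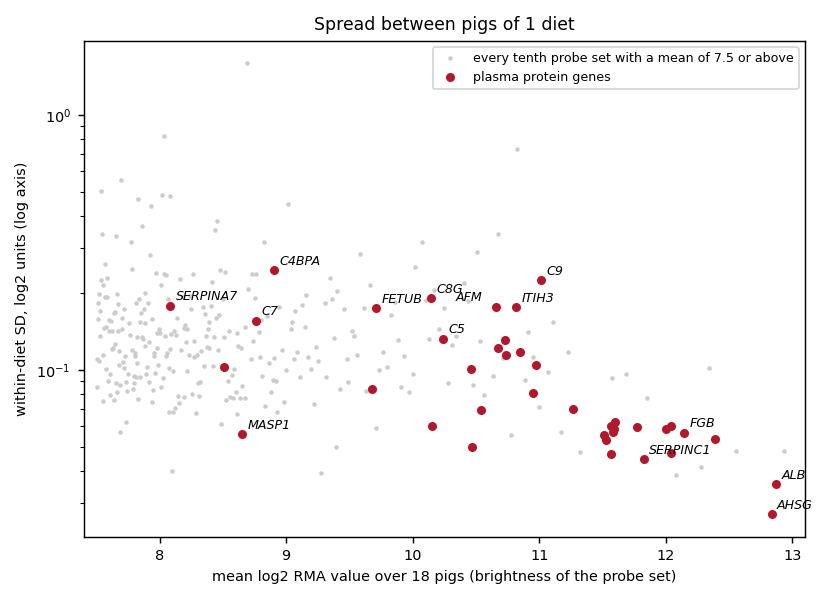
Within-diet SD in log2 units (y axis, log scale) against the mean log2 RMA value over 18 pigs (x axis), a probe set brightness; red points are the 39 plasma protein genes and grey points 1 in 10 of the probe sets with a mean of 7.5 or above. The brightest genes, ALB and AHSG, have the smallest SDs, and C4BPA, C9 and C8G the largest.

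Brighter probe sets had smaller SDs. Over the 39 genes Spearman's rho between mean and SD was -0.668, a description across genes on the same arrays. The 18 genes with a mean of 11 or above had a median SD of 0.057, and the 21 dimmer ones 0.117. The part of compression near the top of the scale in these SDs was not tested.

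**Figure D4:**
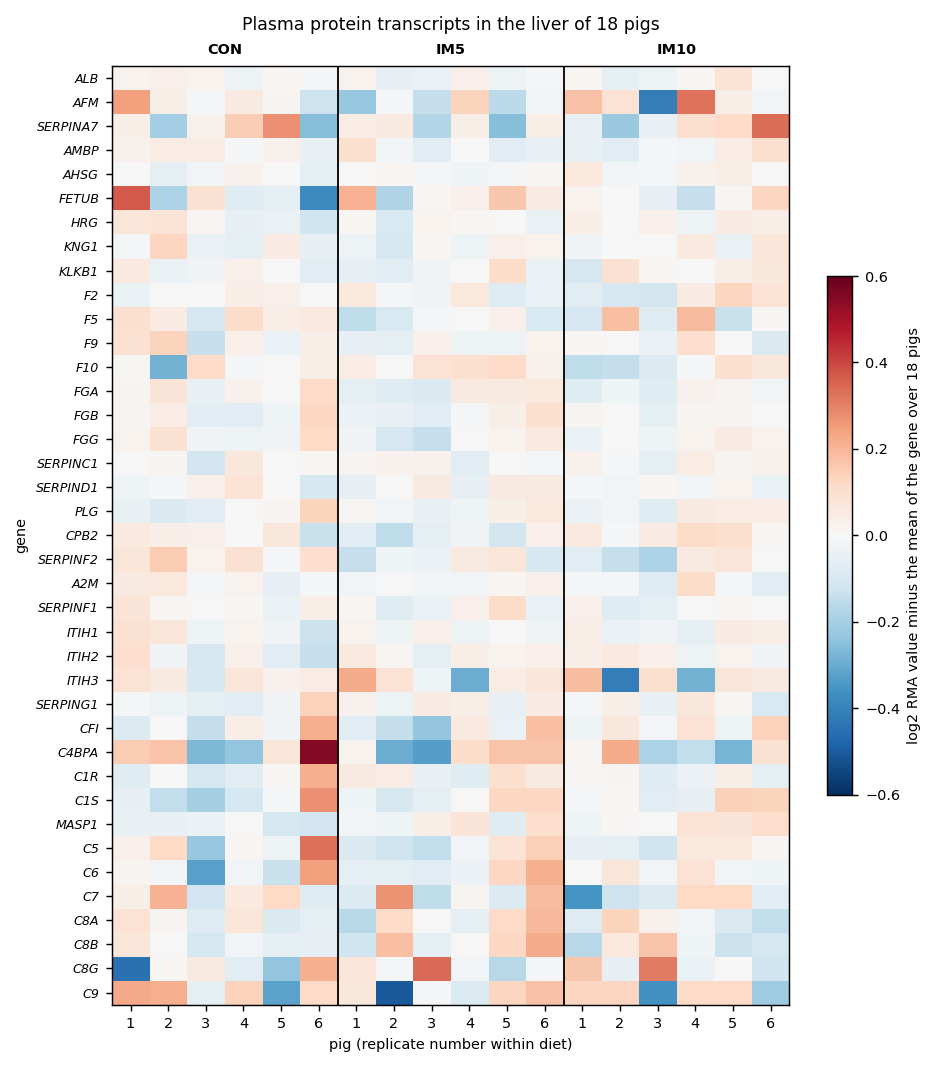
Log2 RMA value of each of the 39 genes (rows, ordered by role) in each of 18 pigs (columns, by diet), minus the mean of the gene over all pigs; red is above and blue below that mean. In no row do all 6 pigs of 1 diet lie above all 6 of another, and CON replicate 6 is above the mean for C4BPA, C5, CFI, C1S and C6.

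The third question was which genes varied together from pig to pig. Deviations of each pig from the mean of its diet were correlated over the 18 pigs, for pairs listed as chains of 1 protein, partners in 1 step, neighbouring genes, or FGG set against ALB and AHSG. Of 35 listed pairs, 22 had both genes measured, and 5 passed an adjusted permutation p of 0.05 over the 22. They were FGA with FGG (r = 0.892, rho = 0.896, adjusted permutation p = 0.00022), FGB with FGG (r = 0.869, rho = 0.849, p = 0.00044), FGA with FGB (r = 0.812, rho = 0.776, p = 0.000953), C8A with C8B (r = 0.841, rho = 0.789, p = 0.00132) and C1R with C1S (r = 0.746, rho = 0.559, p = 0.0429). The unadjusted permutation p of FGA with FGG, 1e-05, is the smallest that the permutations can give.

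Within the diets, with 6 pigs each, the correlation of FGA and FGG was 0.894 in group CON, 0.893 in group IM5 and 0.922 in group IM10. It was 0.955, 0.894 and 0.474 for FGB with FGG and 0.884, 0.866 and 0.579 for FGA with FGB. The pairs that hold FGB thus had lower values in group IM10, a difference between diets that was not tested. FGB hardly varied in group IM10 (SD 0.027, beside 0.073 in group CON). Replicate 3 lay at 12.09 and the other pigs of that group at 12.15 to 12.16, so these 2 values rest largely on 1 pig. Without the 2 pigs farthest from the median of the first gene, r was 0.846, 0.795 and 0.732 for FGA with FGG, FGB with FGG and FGA with FGB. After quantile normalization of the arrays the same 3 correlations were 0.643, 0.664 and 0.616, with unadjusted permutation p of 0.0076, 0.0087 and 0.0122, and none of the 3 then passed the adjusted threshold over the 22 pairs. In the Sscrofa11.1 annotation the 3 genes are neighbours, with 0 protein-coding genes between FGA and each of the other 2.

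C8A and C8B, which encode the alpha and beta chains of complement C8 and are neighbours with 0 protein-coding genes between them, correlated at 0.839, 0.938 and 0.734 in groups CON, IM5 and IM10, and at 0.841 after quantile normalization, where it was the 1 listed pair that still passed. C8G, the third chain of C8, gave r = -0.220 with C8A (permutation p = 0.382) and r = -0.196 with C8B (permutation p = 0.426).

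**Figure D5:**
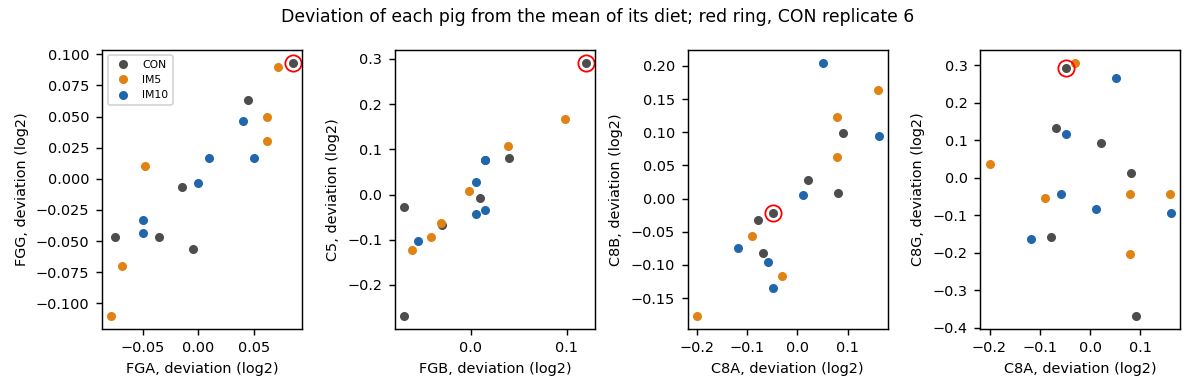
Deviation of each pig from the mean of its diet, in log2 units, for FGA and FGG, FGB and C5, C8A and C8B, and C8A and C8G; each point is 1 of 18 pigs, coloured by diet, and the red ring marks CON replicate 6. The first 3 pairs rise together (r = 0.892, 0.910 and 0.841) and the last does not (r = -0.220).

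C1R with C1S rested on CON replicate 6, which was the highest pig for both genes (11.17 and 10.95). Without it r was 0.431, and without the 2 pigs farthest from the median it was 0.366. The adjusted p for rho was 0.0738. The pairs C6 with C7 (r = 0.135), ITIH1 with ITIH2 (r = 0.582, adjusted permutation p = 0.172), SERPINC1 with F2 (r = 0.261) and PLG with SERPINF2 (r = 0.289) did not pass. FGG with ALB (r = 0.385, adjusted permutation p = 0.201) and FGG with AHSG (r = -0.413, adjusted permutation p = 0.199) did not pass. ITIH1 with ITIH3 did not pass either (r = 0.439, adjusted permutation p = 0.0878), but did without CON replicate 6 (r = 0.604, adjusted permutation p = 0.0334). With Spearman's rho this pair passed on all pigs (rho = 0.548, adjusted permutation p = 0.0486). C6 with C9 did not pass by r (r = 0.49, adjusted permutation p = 0.158), but did by rho (rho = 0.707, adjusted permutation p = 0.0167).

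All 741 pairs of the 39 genes were then correlated, a choice made after the values were seen. A total of 15 passed an adjusted permutation p of 0.05, all with positive r, among 13 genes, and the median r over the 741 pairs was 0.0894. FGA, FGB and C5, the precursor of the anaphylatoxin C5a, each had 5 partners, FGG and C6 had 3 and CFI had 2. Among the other correlations that passed were FGB with C5 (r = 0.910, rho = 0.882, adjusted permutation p = 0.00185), C5 with C6 (r = 0.904, adjusted p = 0.0198), FGA with C5 (r = 0.889, rho = 0.935, adjusted p = 0.00185), FGG with C5 (r = 0.836, rho = 0.888, adjusted p = 0.00185), PLG with C1S (r = 0.848, adjusted p = 0.0266) and HRG with ITIH1 (r = 0.834, adjusted p = 0.020).

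CON replicate 6 weighed on this count. It was the highest of 18 pigs for all 3 fibrinogen chains, FGA (12.12), FGB (12.27) and FGG (12.16). It was also the highest for C5 (10.57), C6 (10.97), CFI (11.07), C1S (10.95), PLG (11.70) and C4BPA (9.46), and the lowest for HRG (12.27) and ITIH1 (11.38). Without it 5 pairs passed, all of them among the 15, namely FGA with FGG, FGB with FGG, FGA with C5, FGB with C5 and C8A with C8B. FGB with C5 gave r = 0.856 without this pig and 0.874 after quantile normalization.

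Outside the 39 genes, FGB was related to 23 other secreted liver proteins, also after the values were seen. Inter-alpha-trypsin inhibitor heavy chain 4 (ITIH4, r = 0.732, rho = 0.666) and ceruloplasmin (CP, r = 0.770, rho = 0.604) passed, both with an adjusted permutation p of 0.0338, and haptoglobin (HP) gave 0.0504. The same pig had the highest values of these genes, 11.74 for ITIH4, 11.85 for CP and 12.49 for HP, and of CRP (11.88, where the other 17 lay between 9.63 and 10.92). Without it none of the 23 passed (adjusted permutation p = 0.165 for both ITIH4 and CP). Not all of the 23 rose with FGB. ORM1 gave r = -0.575 (adjusted permutation p = 0.0589), and r = -0.630 without CON replicate 6. SAA3 gave r = -0.003. Among 11 relations of FGB with marker lists and the array median, the mean of the smooth muscle markers passed (r = 0.649, rho = 0.639, adjusted permutation p = 0.0208). Without CON replicate 6 it gave r = 0.683 (adjusted permutation p = 0.0855), and without the 2 farthest pigs r = 0.402. The mean of the B and plasma cell markers gave r = 0.628 (adjusted permutation p = 0.0620), and r = 0.604 without the 2 farthest pigs. That of the hepatocyte markers gave r = 0.201 (adjusted permutation p = 0.742). The mean of the 6 smooth muscle markers ranged from 5.01 to 5.60 over the CON pigs, from 5.10 to 7.17 over the IM5 pigs and from 5.25 to 6.31 over the IM10 pigs. The part of these in the correlations was not tested.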

How the data were processed

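Liver RNA of 18 pigs was hybridised to Affymetrix Porcine Gene 1.0 ST arrays. The deposited values are log2 expression values that the authors made by RMA in Affymetrix Expression Console, with no version in the sources used here; this corrects background, normalizes between arrays and summarises probes, so shifts common to all probe sets of an array are removed. Genes were named from the platform annotation, in which 13327 probe sets had 1 symbol, 357 several and 11704 were not listed. FGA was listed under a pair of gene numbers with the same symbol and was counted as 1 gene. For AHSG, F2, PLG and C4BPA the probe set with the highest mean was used.

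Pairs of diets were compared on 12 arrays with limma 3.58.1 in R 4.3.3, with Benjamini-Hochberg adjustment over all 25388 probe sets, after a test on simulated data. For single genes, group means were compared over all 924 arrangements of the 12 pigs (exact permutation, two-sided; smallest possible p 0.00216). Correlations used 100000 permutations within diets, with Benjamini-Hochberg adjustment within each family. Genes with values are those with the 5 largest differences per comparison, the 5 largest and the 5 smallest SDs, a set of main proteins, and pairs that passed; others were named after their values were seen. The genes and lists were chosen with earlier results of these data known. Alternatives covered the methods' t-test, other fits, other normalizations, a filter on dim probe sets, all probe sets of a gene, the replicate block and leaving out each array. Detection calls and scan dates were not analysed here. The number of arrays limits the precision.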

Additional observations from a re-analysis of the deposited data

Results flagged for a closer look

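In each diet, each of the 39 genes was examined for a single pig that stood apart from the other 5 by Dixon's test. Of 117 combinations of gene and diet, 8 were found, and chance alone gives about 1 in 20. Of these, 3 were CON replicate 6, which was low for CPB2 (11.47, others 11.60 to 11.67) and high for SERPING1 (11.73, others 11.53 to 11.58) and C1R (11.17, others 10.85 to 10.96). CON replicate 3 was low for F5 (10.36, others 10.50 to 10.57) and for ITIH3 (10.72, others 10.84 to 10.90). CON replicate 2 was low for F10 (8.23, others 8.50 to 8.63). In group IM10, replicate 3 was low for FGB (12.09, others 12.15 to 12.16) and replicate 4 was high for A2M (12.15, others 11.96 to 12.03).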

How the results depend on the processing

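The count of genes meeting the criteria was 0 in all 3 comparisons under all alternatives run, each array left out included. The methods' t-test gave 2 genes below the p threshold of 0.05 in IM10 against CON (SERPINF2 and MASP1), 3 in IM5 against CON (SERPINF2, MASP1 and F5) and 1 in IM10 against IM5 (CPB2), all with differences under 1.2-fold, and 0 after Benjamini-Hochberg adjustment. CPB2 was also the 1 gene called in IM10 against IM5 with 1 fit on all 18 arrays, with a trended and robust prior, after quantile normalization and with dim probe sets left out. Without 1 array the limma counts ranged from 0 to 1 in IM10 against CON, were 0 in IM5 against CON and ranged from 0 to 1 in IM10 against IM5. The counts of exact p under 0.05 ranged from 1 to 3, from 0 to 3 and from 1 to 2. The dose trend called 1 gene with a trended and robust prior (SERPINF2), after median centring (SERPINF2) and with dim probe sets left out (MASP1), and 0 to 1 without 1 array. Of 225 values of single genes under alternatives that can move the difference, 224 had the same sign; C4BPA in IM10 against CON was 0.0417 with the mean of its probe sets.

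Listed pairs passing were 5, but 1 after quantile normalization (C8A with C8B was then at r = 0.841), and 4 to 5 without 1 array. With Spearman's rho, ITIH1 with ITIH3 and C6 with C9 passed as well, and C1R with C1S did not. Of all pairs, 15 passed, but 3 after quantile normalization, 8 with Spearman's rho and 5 to 27 without 1 array: 27 without CON replicate 2, 9 without CON replicate 3, 5 without CON replicate 6, 6 without IM5 replicate 3 and 8 without IM5 replicate 6. The cause was not tested. With the replicate block, 0 genes were called in each comparison. Same-numbered pigs correlated over 0.1 in 4 of 18 pairs (-0.144 to 0.201). These values were not set against a reference distribution, so they cannot show whether the numbers pair the pigs.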
